A study of Mus musculus with 21 samples.

Results

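The Toll-like receptors Tlr1, Tlr2, Tlr3, Tlr4, Tlr6, Tlr7, Tlr8, Tlr9 and Tlr13 and the co-receptor Cd14 were followed in macrophages sorted from mouse kidneys. The 10 genes were chosen by symbol from the 34236 symbols of the count table, and all 10 were found and could be tested in every comparison. The kidneys came from male C57BL/6J mice whose labels give an age of 24 weeks, after Sham surgery or after renal artery stenosis (RAS), in which a cuff narrows 1 renal artery. Macrophages positive for F4/80 and CD64 were sorted by flow cytometry, without culture, as CD11chiMϕ, CD11cloMϕ and kidney-resident macrophages (KRM), so each group is what its gate let through. RNA was sequenced in 21 libraries, with 3 of CD11chiMϕ, 3 of CD11cloMϕ and 4 of KRM from Sham kidneys, and with 4, 4 and 3 from RAS kidneys. Whether a library is 1 animal or a pool was not given in the sources used here, so p-values measure the spread between these libraries.

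Toll-like receptors are membrane proteins that recognize conserved parts of microbes and, for some of them, molecules released by damaged cells. At the cell surface, Tlr2 pairs with Tlr1 or Tlr6 to bind bacterial lipopeptides, and Tlr4 with its partner Ly96 (MD-2) binds lipopolysaccharide, which Cd14 delivers to it. Inside endosomes, Tlr3 binds double-stranded RNA, Tlr7 and Tlr8 single-stranded RNA, Tlr9 DNA with unmethylated CpG and the mouse receptor Tlr13 bacterial ribosomal RNA. All of these receptors except Tlr3 signal through the adaptor Myd88, while Tlr3 uses Ticam1 (TRIF) and Tlr4 uses both, and the signal ends in NF-kB and IRF factors that switch on cytokine genes.

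Promoter sequence is shown for 4 receptors whose levels separated CD11cloMϕ from another population, 2 that were lower in CD11cloMϕ than in KRM from Sham kidneys (Tlr1 and Tlr3) and 2 that were higher in CD11cloMϕ in RAS kidneys (Tlr8 and Tlr13). Each line holds the 250 bases before the RefSeq start (GRCm38.p6), with capitals for every match, on either strand, to the PU.1 box GAGGAA, AP-1 TGANTCA, C/EBP TTNNGCAA and the TATA box TATAAA, and to an IRF and an NF-kB motif. For Tlr1, which has more than 1 start in the table, the start nearest to the annotated 5' end is shown.
Tlr1 (chr5:64933559-64933808, minus strand): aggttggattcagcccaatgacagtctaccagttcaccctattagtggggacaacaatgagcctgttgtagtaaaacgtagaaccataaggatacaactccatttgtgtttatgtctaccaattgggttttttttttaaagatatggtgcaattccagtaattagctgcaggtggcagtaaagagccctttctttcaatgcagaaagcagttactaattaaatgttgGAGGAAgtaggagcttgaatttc
Tlr3 (chr8:45410381-45410630, minus strand): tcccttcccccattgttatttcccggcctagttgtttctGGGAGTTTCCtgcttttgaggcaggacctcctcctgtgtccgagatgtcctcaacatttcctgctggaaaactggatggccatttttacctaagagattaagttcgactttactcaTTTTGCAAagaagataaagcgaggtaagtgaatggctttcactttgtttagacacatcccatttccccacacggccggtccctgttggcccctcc
Tlr8 (chrX:167264330-167264579, minus strand): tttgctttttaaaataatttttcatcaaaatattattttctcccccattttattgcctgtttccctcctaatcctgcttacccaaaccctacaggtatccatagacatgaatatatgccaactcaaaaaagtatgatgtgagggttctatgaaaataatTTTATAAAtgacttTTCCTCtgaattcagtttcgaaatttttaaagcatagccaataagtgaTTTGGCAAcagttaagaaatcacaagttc
Tlr13 (chrX:106143025-106143274, plus strand): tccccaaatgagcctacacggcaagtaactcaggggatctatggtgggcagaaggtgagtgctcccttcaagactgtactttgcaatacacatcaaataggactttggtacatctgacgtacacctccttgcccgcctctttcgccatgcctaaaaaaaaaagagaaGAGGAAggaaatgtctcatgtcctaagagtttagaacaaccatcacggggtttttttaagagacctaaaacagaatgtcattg
The table held 9 starts for 7 of the 10 genes. The PU.1 box was present in 4 of these 9 windows, those of Tlr1, Tlr8, Tlr9 and Tlr13, and in 23.3% of the 32851 windows of the whole table. C/EBP matches lay in 3 (Tlr3, Tlr6 and Tlr8) against 9.56% of the whole table, NF-kB matches in 2 (Tlr2 and Tlr3) against 7.25%, and TATA matches in 2 (Tlr6 and Tlr8) against 12.4%. AP-1 matches lay in 1 (Tlr9) against 6.75%, and IRF matches in 1 (Tlr6) against 2.98%. A match describes letters in a window and is no evidence of binding.

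Library totals ran from 6891177 to 18592427 counts. The gene for CD11c, Itgax, was at 289 ± 150 CPM (counts scaled to a common library size and normalised by TMM, SD, n = 3) in CD11chiMϕ, 19.2 ± 7.94 CPM (n = 3) in CD11cloMϕ and 383 ± 35.0 CPM (n = 4) in KRM from Sham kidneys, and the gene for F4/80 (listed as Emr1) was counted in all 6 groups, at means of 301 to 1531 CPM. The summed CPM of 10 kidney tubule genes set some libraries apart. It was 7335 in Sham CD11chiMϕ replicate 3 against 99.2 and 113 in the other two, 2307 in Sham CD11cloMϕ replicate 3 against 54.3 and 68.4, 1148 in Sham KRM replicate 3 against 126 to 143, and 638, 4941 and 3783 in RAS KRM replicates 1, 2 and 3. The summed CPM of 10 macrophage identity genes was 2825 in Sham CD11chiMϕ replicate 3 and 7284 and 9169 in the other two. RAS KRM replicate 1 also stood apart in that its column in the deposited log2 values did not correspond to its counts, with r = 0.671 across 11965 genes against 0.895 to 0.935 for the other libraries. Its counts were closest to the log2 column of Sham KRM replicate 4 (r = 0.867). Apart from it and Sham KRM replicate 1 (0.9225, and 0.928 with the column of Sham KRM replicate 2), each library was closest to its own column. RNA is bulk, so fewer cells of a type and less RNA per cell cannot be told apart.

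Cd14 and Tlr2 were the most abundant of the 10 genes per kilobase of exon in all 6 groups, and Tlr9 was the least abundant. In Sham KRM, Cd14 stood at 982 ± 171 CPM per kb, Tlr2 at 128 ± 8.07, Tlr13 at 44.0 ± 6.71, Tlr1 at 41.3 ± 4.73, Tlr4 at 25.6 ± 3.61 and Tlr7 at 25.4 ± 3.47 CPM per kb (SD, n = 4). Tlr8 at 8.74 ± 1.93, Tlr6 at 6.48 ± 0.873, Tlr3 at 5.24 ± 1.62 and Tlr9 at 1.31 ± 0.211 CPM per kb followed. The neighbours Tlr13 and Tlr1, Tlr4 and Tlr7, and Tlr6 and Tlr3 differed by less than the larger of their SDs. In Sham CD11cloMϕ the order below Tlr13 was different, with Tlr7 (28.0 ± 4.83) and Tlr8 (15.6 ± 1.44) above Tlr1 (8.84 ± 0.456), Tlr4 (7.98 ± 3.82) and Tlr6 (5.39 ± 1.30), and Tlr3 at 0.695 ± 0.219 CPM per kb (SD, n = 3). These are levels per length with no test between genes.

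**Figure D1:**
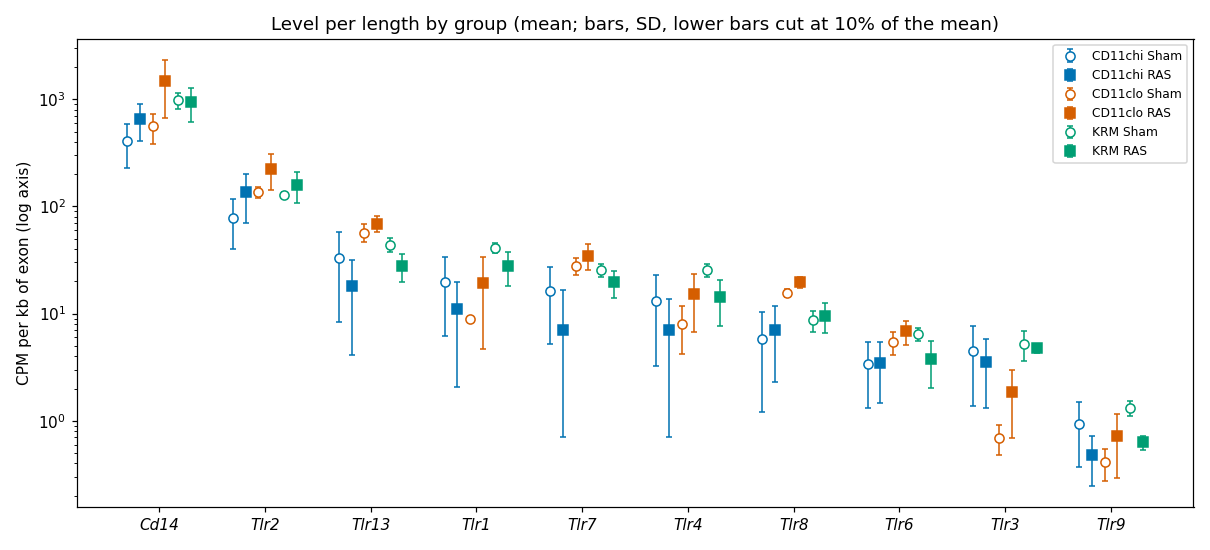
Mean level of each gene in CPM per kilobase of exon (vertical log axis) in the 6 groups; open circles are Sham and filled squares RAS groups of 3 or 4 libraries, and bars are SD. Cd14 stands highest and Tlr9 lowest in every group, while Tlr3 and Tlr1 of Sham CD11cloMϕ fall below Sham KRM.

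The surface receptors were compared first between KRM and CD11cloMϕ from Sham kidneys. Of the 10 genes, 5 were higher in KRM (Tlr1, Tlr4, Tlr3, Tlr9 and Cd14) at an adjusted p under 0.05 in edgeR's quasi-likelihood test, where 19.5% of the 12365 genes tested were higher, and 1 was lower (Tlr8), where 22.4% were lower. The median log2 fold change was 0.51 over the 10 genes and -0.04 over all genes. Libraries of KRM and CD11cloMϕ did not overlap for 6 of the 10 genes and for 48.8% of all genes tested. Tlr1 (chr5:64924679-64933563), the partner of Tlr2 for triacylated lipopeptides, was at 120.3, 136, 138 and 159 CPM in the 4 KRM libraries and at 31.4, 28.7 and 28.8 CPM in the 3 of CD11cloMϕ. The groups did not overlap, and the level was 4.60-fold higher in KRM (log2 2.20, standard error 0.13, adjusted p = 8.70e-06). Tlr4 (chr4:66827584-66930284), the lipopolysaccharide receptor, was at 117, 143, 144 and 166 CPM in KRM and 67.3, 40.5 and 25.3 CPM in CD11cloMϕ, 3.14-fold higher without overlap (log2 1.65, standard error 0.32, adjusted p = 0.00383). In 1 fit over all 6 groups the adjusted p of Tlr4 was 0.0818.

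Tlr2 (chr3:83836272-83841767) was similar in value in both populations. It was at 357, 415, 379.6 and 390.3 CPM in Sham KRM and 352, 427 and 452 CPM in Sham CD11cloMϕ, with overlap (log2 -0.11, standard error 0.12, adjusted p = 0.492). Tlr6 (chr5:64952031-64960097), the partner of Tlr2 for diacylated lipopeptides, was at 26.6, 25.1, 19.4 and 25.5 CPM and at 21.9, 23.8 and 14.6 CPM, again overlapping (log2 0.23, standard error 0.22, adjusted p = 0.426). Tlr1 and Tlr6 are neighbours with similar sequence, and reads were divided between them: the count of Tlr1 was not whole in 21 of 21 libraries while the sum of both was whole in 21, within 0.001, so the split between them is uncertain.

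Among the endosomal receptors, Tlr3 differed most between Sham KRM and Sham CD11cloMϕ. Tlr3 (chr8:45395665-45411080) was at 22.03, 18.7, 31.2 and 37.15 CPM in KRM and 4.45, 2.32 and 4.09 CPM in CD11cloMϕ, which is 7.41-fold higher without overlap (log2 2.89, standard error 0.34, adjusted p = 0.000339). The CD11cloMϕ values rest on 20 to 43 counts. An antisense gene, Gm45542, shares 381 exon bases with Tlr3, and reads of both genes cannot be told apart without strand. Tlr9 (chr9:106222598-106226883) was at 4.455, 5.29, 3.59 and 4.92 CPM and at 1.76, 1.62 and 0.885 CPM, 3.12-fold higher in KRM without overlap (log2 1.64, standard error 0.39, adjusted p = 0.0108), on 37 to 72 and 8 to 17 counts.

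Tlr8 (chrX:167242696-167264329) went the other way. It was at 21.2, 36.2, 35.3 and 32.65 CPM in Sham KRM and 61.35, 55.2 and 51.1 CPM in Sham CD11cloMϕ, without overlap (log2 -0.86, standard error 0.20, adjusted p = 0.00916), and in 1 fit over all 6 groups the adjusted p was 0.213. Tlr7 (chrX:167304929-167330558), next to Tlr8 on the chromosome, was at 83.2, 110.5, 107 and 115 CPM and at 131, 92.7 and 119 CPM, overlapping (log2 -0.16, standard error 0.16, adjusted p = 0.451). Tlr13 (chrX:106143204-106160493) was at 152, 183, 206 and 217 CPM and at 296, 239 and 202 CPM, overlapping (log2 -0.40, standard error 0.18, adjusted p = 0.108). Without Sham CD11cloMϕ replicate 3, which held the tubule RNA named above, Tlr13 was lower in KRM by log2 -0.54 at an adjusted p of 0.0270.

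Cd14, on chromosome 18, was at 2117, 1703, 1482 and 1499 CPM in Sham KRM and 1177, 626 and 1098 CPM in Sham CD11cloMϕ. The groups did not overlap, and KRM were 1.735-fold higher (log2 0.80, standard error 0.24, adjusted p = 0.0282). Without CD11cloMϕ replicate 2, KRM replicate 1 or KRM replicate 2 the adjusted p was 0.0644, 0.0642 or 0.0622, and in 1 fit over all 6 groups it was 0.219. Marker lists of other cells differed between these populations too: the summed CPM of 8 classical monocyte genes was 577 to 876 in KRM and 6759 to 17310 in CD11cloMϕ, and that of 10 neutrophil genes was 91.0 to 117 and 653 to 1737. Ly6c2, a defining monocyte gene, was at 7.44 ± 1.37 CPM (n = 4) and 811 ± 221 CPM (n = 3). Dissociation stress genes (10 listed) summed to 29690 to 45070 CPM in KRM and 18110 to 30720 CPM in CD11cloMϕ. The part of these cells and of stress in the receptor differences was not tested.

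**Figure D2:**
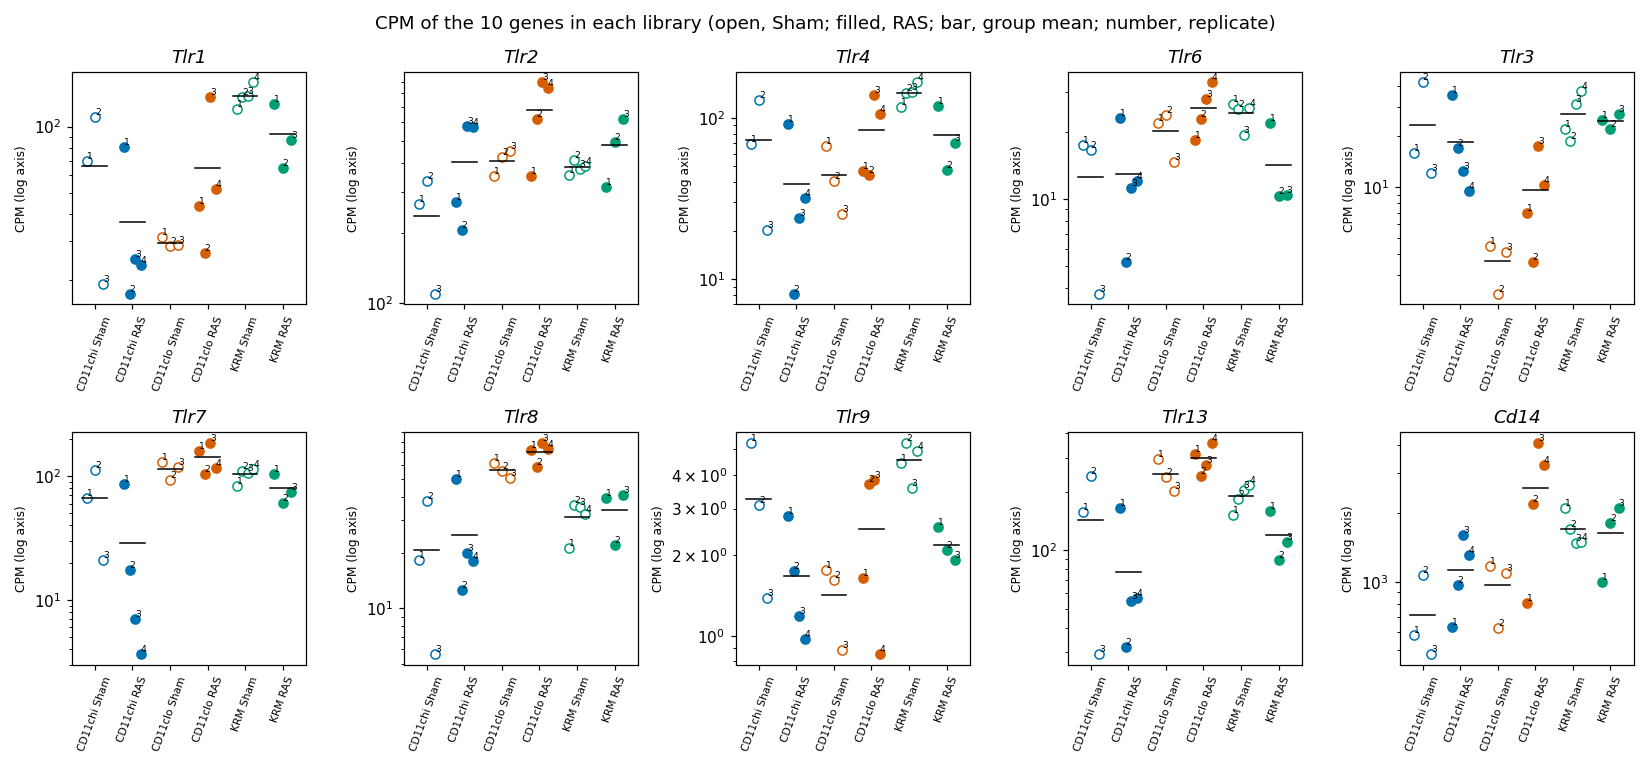
CPM (vertical log axis) of each gene in every library, with open points for Sham, filled points for RAS, the replicate number beside each point and a line at the group mean. Tlr1 and Tlr3 of Sham KRM lie above all Sham CD11cloMϕ, and Sham CD11chiMϕ replicate 3 and RAS CD11chiMϕ replicates 2 to 4 lie low for Tlr1, Tlr4, Tlr7 and Tlr13.

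KRM and CD11chiMϕ from Sham kidneys were compared next, and none of the 10 genes passed. Over all 12380 genes 1% were higher and 4.13% lower in KRM, 635 calls in all, and 89 were called in the fit blocked on replicate number. All 10 means were higher in KRM, with a median log2 fold change of 0.65 over the genes and -0.07 over all genes, and 1 gene, Cd14, had an unadjusted p under 0.05, as did 3037 of all genes (24.53%). With a higher mean in KRM, 9.53% of the genes tested had such a p. DESeq2 called 1 of the 10 genes (Cd14), where it called 5.41% of 11677 genes higher in KRM and 1811 in either direction, and limma called 0, where it called 2.77% of 14020. Cd14 was at 582, 1071 and 479.5 CPM in Sham CD11chiMϕ, below all Sham KRM libraries (log2 1.22, standard error 0.32, adjusted p = 0.0751). Tlr2 was at 268, 335 and 109.5 CPM in Sham CD11chiMϕ, also below all 4 KRM libraries (log2 0.67, standard error 0.34, adjusted p = 0.258). The libraries did not overlap for 4 of the 10 genes and for 24.5% of all genes tested. All 9 receptors were lowest in Sham CD11chiMϕ replicate 3, as Tlr7 was at 66.3, 111.4 and 20.99 CPM, Tlr4 at 68.9, 129.8 and 20.1 CPM and Tlr13 at 158, 243 and 29.2 CPM in replicates 1, 2 and 3. Without that library, Cd14 was called higher in KRM (log2 1.03, adjusted p = 0.0384), 1 of the 10 genes where 4.31% of all genes were higher, and the 9 receptors were not. The log2 fold changes of Tlr3 and Tlr13 were then below 0 (-0.08 and -0.09). Those of Tlr9, Tlr8 and Tlr7 were 0.10, 0.16 and 0.22, and those of Tlr2, Tlr6, Tlr4 and Tlr1 were 0.34 to 0.61. Without Sham CD11chiMϕ replicate 2 the call among the 10 was again Cd14 (log2 1.63, adjusted p = 0.0283), where 370 of 12911 genes were higher in KRM and 527 lower.

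CD11chiMϕ and CD11cloMϕ from Sham kidneys gave no call among the 10 genes either, where 0.917% of 12105 genes were higher in CD11chiMϕ and 0.603% lower, 184 calls in all and 595 with the replicate block. Tlr3 came nearest, at 15.9, 41.9 and 12.2 CPM in CD11chiMϕ against the 2.32 to 4.45 CPM of CD11cloMϕ (log2 2.73, standard error 0.56, adjusted p = 0.0769), and it was the only one of the 10 with an unadjusted p under 0.05, which 2144 of all genes reached (17.71%). With a higher mean in CD11chiMϕ, 9.97% of the genes tested reached it. Tlr8 was at 18.2, 38.05 and 5.66 CPM in CD11chiMϕ, below the 51.1 to 61.35 CPM of CD11cloMϕ (log2 -1.40, standard error 0.59, adjusted p = 0.290). The libraries did not overlap for 3 of the 10 genes and for 26.8% of all genes tested. DESeq2 called 1 of the 10 (Tlr3, adjusted p = 0.000185), where it called 5.65% of 11584 genes higher in CD11chiMϕ and 1213 in either direction, and limma called 0, where it called 0.735% of all genes. Without Sham CD11chiMϕ replicate 3, Tlr1 (log2 1.60, adjusted p = 0.0186) and Tlr3 (log2 2.99, adjusted p = 0.0313) were higher in CD11chiMϕ, 2 of the 10 genes against 3% of all genes.

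In RAS kidneys, Tlr8 and Tlr13 were higher in CD11cloMϕ than in both other populations. Tlr8 was at 72.2, 58.2, 79.0 and 73.2 CPM in RAS CD11cloMϕ, 39.4, 22.2 and 41.3 CPM in RAS KRM and 49.9, 12.5, 19.99 and 17.98 CPM in RAS CD11chiMϕ. Every CD11cloMϕ library lay above every library of the other two (KRM: log2 -0.998, standard error 0.24, adjusted p = 0.0454, CD11chiMϕ: log2 -1.49, standard error 0.38, adjusted p = 0.0430). Tlr13 was at 315, 241, 276 and 359 CPM in RAS CD11cloMϕ, 159.8, 89.6 and 111 CPM in RAS KRM and 165, 31.7, 55.1 and 57.0 CPM in RAS CD11chiMϕ. It did not overlap either (KRM: log2 -1.27, standard error 0.25, adjusted p = 0.0326, CD11chiMϕ: log2 -1.96, standard error 0.45, adjusted p = 0.0312). Both comparisons share the CD11cloMϕ libraries. Against KRM, 3 of the 10 genes and 30.5% of all genes tested did not overlap. Against CD11chiMϕ, 3 of the 10 genes and 16.6% of all genes tested did not overlap. Tlr3, the double-stranded RNA receptor, was at 25.1, 22.2 and 27.2 CPM in RAS KRM, above the 3.58 to 17.65 CPM of RAS CD11cloMϕ without overlap, and missed the threshold (log2 1.42, standard error 0.47, adjusted p = 0.0863).

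These were the only calls among the 10 genes there, 0 higher and 2 lower in KRM against CD11cloMϕ, where 3.28% of 13179 genes were higher and 5.89% lower, and 0 higher and 2 lower in CD11chiMϕ against CD11cloMϕ, where 5.15% of 12305 genes were higher and 3.12% lower. With library totals in place of TMM the split over all genes for KRM against CD11cloMϕ was 990 higher and 513 lower, against 432 and 776. The calls rest on few libraries: leaving out RAS CD11cloMϕ replicate 1, 2 or 4 or RAS KRM replicate 2 or 3 left 0 of the 10 called against KRM. The calls over all genes in these fits were 4.14, 0.346 and 0.686% without the CD11cloMϕ libraries and 0% without either KRM library. Against CD11chiMϕ 0 of the 10 were left without RAS CD11chiMϕ replicate 2, 3 or 4 or RAS CD11cloMϕ replicate 1, 2 or 4, where 2.02 to 4.96% of all genes were called, and 1 without RAS CD11cloMϕ replicate 3, where 8.13% were. Markers of other cells moved along. The summed CPM of classical monocyte genes was 3326 to 9574 in RAS CD11cloMϕ, 610 to 1020 in KRM and 1121 to 2763 in CD11chiMϕ, that of neutrophil genes was 1244 to 4628, 71.1 to 132 and 15.9 to 321, and that of 8 conventional dendritic cell genes was 108 to 396, 123 to 178 and 1022 to 5151. Kidney tubule genes summed to 17.2 to 474.5 CPM in RAS CD11cloMϕ, 638 to 4941 in KRM and 200.5 to 332.5 in CD11chiMϕ. The part of these cells was not tested.

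Tlr7 varied more in RAS CD11chiMϕ than in the other 5 groups, with a coefficient of variation of 136% against 13.6 to 68.2%. It was at 86.9, 17.5, 6.98 and 3.64 CPM there and at 160.5, 104, 187 and 117 CPM in RAS CD11cloMϕ, and the groups did not overlap (log2 -2.30, standard error 0.83, adjusted p = 0.113). RAS CD11chiMϕ replicate 1 stood above the other three for Tlr1, Tlr4, Tlr6, Tlr7, Tlr8, Tlr9, Tlr3 and Tlr13. Without it, 5 of the 10 genes were lower in CD11chiMϕ than in CD11cloMϕ, where 7.26% of all genes were lower: Tlr7 (log2 -3.93, adjusted p = 0.00307), Tlr13 (-2.64, 0.00138), Tlr8 (-2.07, 0.00152), Tlr4 (-1.98, 0.0411) and Tlr6 (-1.42, 0.0253). Without RAS KRM replicate 1, 4 genes were lower in KRM than in CD11cloMϕ, where 10.4% of all genes were lower: Tlr13 (log2 -1.54, adjusted p = 0.0126), Tlr6 (-1.27, 0.0310), Tlr8 (-1.12, 0.0329) and Tlr7 (-1.02, 0.0354).

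**Figure D3:**
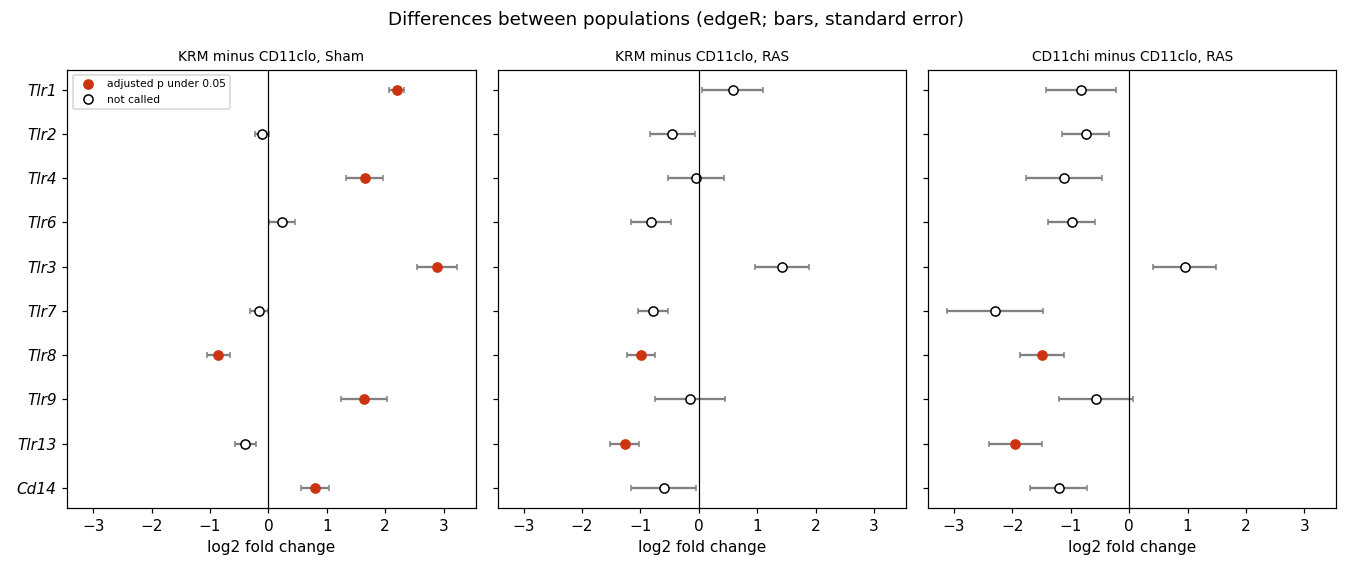
Log2 fold change of each gene between populations (horizontal axis, bars are standard errors, edgeR), with filled points for an adjusted p under 0.05. In Sham kidneys Tlr1, Tlr4, Tlr3, Tlr9 and Cd14 are right of 0 and Tlr8 left of it, while in RAS kidneys the filled points are Tlr8 and Tlr13, left of 0.

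KRM and CD11chiMϕ from RAS kidneys gave no call among the 10 genes, where 4.17% of 13226 genes were higher in KRM and 5.07% lower; with library totals the split was 553 higher and 453 lower, against 551 and 670. All 10 means were higher in KRM, and 1 gene, Tlr1, had an unadjusted p under 0.05 (127, 64.6 and 87.0 CPM against 81.0, 17.3, 24.8 and 23.3 CPM, log2 1.40, standard error 0.53, adjusted p = 0.122). Of all genes 3946 had such a p (29.84%), and 14.6% of the genes tested had it with a higher mean in KRM. DESeq2 and limma each called 0 of the 10, where they called 20.9% and 4.08% of all genes. Without RAS CD11chiMϕ replicate 1, 4 genes were higher in KRM, where 8.11% of all genes were higher: Tlr7 (log2 3.19, adjusted p = 0.0162), Tlr1 (2.18, 0.00755), Tlr4 (1.98, 0.0477) and Tlr13 (1.42, 0.0262).

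The response to RAS was then compared within each population. None of the 10 genes passed the test between RAS and Sham in any of the 3 populations. Tlr2 in CD11chiMϕ was at 272, 207, 578 and 572 CPM in RAS and 268, 335 and 109.5 CPM in Sham, with 2 RAS libraries above the Sham range and 2 within it (log2 0.70, standard error 0.50, adjusted p = 0.623). Tlr7 in CD11chiMϕ was at the 3.64 to 86.9 CPM given above in RAS and at 20.99 to 111.4 CPM in Sham, with 3 of the 4 RAS libraries below the Sham range (log2 -1.23, standard error 1.03, adjusted p = 0.670). Cd14 in CD11chiMϕ was at 632, 964, 1605 and 1318 CPM in RAS and 582, 1071 and 479.5 CPM in Sham, with overlap (log2 0.59, standard error 0.43, adjusted p = 0.633). In CD11chiMϕ 0 of the 10 genes were called, where 0% of 12739 genes were higher and 0% lower, and 0 genes of the 10 had an unadjusted p under 0.05, while 1247 of all genes (9.79%) did and DESeq2 called 189 (1.61%) and limma 0. By DESeq2 and limma 0 of the 10 were called in CD11chiMϕ or CD11cloMϕ. In CD11cloMϕ 0 were called, again where 0% of 12301 genes were higher and 0% lower, with 1102 of all genes at an unadjusted p under 0.05 and 107 (0.883%) called by DESeq2 and 0 by limma. All 10 means were higher in RAS CD11cloMϕ. Cd14 was at 806, 2204, 4100 and 3272 CPM in RAS and 1177, 626 and 1098 CPM in Sham CD11cloMϕ, with 3 of the 4 RAS libraries above every Sham library and 1 within their range (log2 1.41, standard error 0.52, adjusted p = 0.553). Tlr3 was at 7.01, 3.58, 17.65 and 10.2 CPM in RAS CD11cloMϕ against 4.45, 2.32 and 4.09 CPM (log2 1.39, standard error 0.57, adjusted p = 0.553), and Cd14 and Tlr3 were the 2 of the 10 with an unadjusted p under 0.05, where 5.58% of all genes had one with a higher mean in RAS. The neutrophil genes summed to 1244 to 4628 CPM in RAS and 653 to 1737 CPM in Sham CD11cloMϕ. The T and NK cell genes summed to 9.67 to 60.1 and 4.06 to 5.64 CPM, and the classical monocyte genes to 3326 to 9574 and 6759 to 17310 CPM. The part of these cells was not tested in RAS against Sham CD11cloMϕ.

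In KRM 0 of the 10 genes were called, where 7.77% of 12852 genes were higher in RAS and 1.94% lower. These shares rest on single libraries: the 1247 calls over all genes became 26, 33 or 43 without Sham KRM replicate 1, 2 or 4, 28 or 32 without RAS KRM replicate 2 or 3, 1336 without Sham KRM replicate 3 and 7071 without RAS KRM replicate 1. An unadjusted p under 0.05 was reached by 4 genes, all with lower means in RAS: Tlr4, Tlr6, Tlr9 and Tlr13. Of all genes 4369 reached it (33.99%), and 13% of the genes tested reached it with a lower mean in RAS. DESeq2 called 3 of the 10 (Tlr4, Tlr9 and Tlr13), where it called 8.8% of 12749 genes lower in RAS and 3167 in either direction. On the deposited log2 values limma called 1 (Tlr6), where it called 10.7% of 14020 genes lower and 2599 in either direction. That fit holds the column of RAS KRM replicate 1 that did not correspond to its counts. Tlr6 was at 1.59 in that column against 3.43 to 3.98 in Sham KRM, while its counts gave 21.7 CPM against 19.4 to 26.6 CPM. Tlr4 was at 119, 47.8 and 69.4 CPM in RAS KRM and 117, 143, 144 and 166 CPM in Sham KRM, with RAS replicate 1 inside the Sham range and the other two below it (log2 -0.75, standard error 0.29, adjusted p = 0.114). Tlr9 was at 2.56, 2.09 and 1.93 CPM, below all Sham libraries (log2 -0.95, standard error 0.29, adjusted p = 0.0726). It was the 1 gene of the 10 without overlap, where 27.6% of all genes tested did not overlap. Tlr2 was at 317, 496 and 623 CPM in RAS against 357 to 415 CPM in Sham KRM, so that replicate 1 was below and the other two above the Sham range (log2 0.42, standard error 0.23, adjusted p = 0.220). Cd14 was at 995, 1820 and 2120 CPM in RAS KRM and spread around the 1482 to 2117 CPM of Sham KRM (log2 0.06, standard error 0.28, adjusted p = 0.885).

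RAS KRM replicate 1, the library whose deposited tables do not correspond, decided this count. Without it, 7 of the 10 genes were called. Tlr2 was higher (log2 0.61, adjusted p = 0.00663), 1 gene where 28.1% of all genes were higher, and 6 were lower, where 22.1% of all genes were lower: Tlr4 (-1.21, 0.00206), Tlr6 (-1.14, 0.00167), Tlr9 (-1.10, 0.0250), Tlr13 (-0.85, 0.00625), Tlr1 (-0.80, 0.00570) and Tlr7 (-0.55, 0.0279). Tlr3, Tlr8 and Cd14 were not called. The 2 libraries that remain are also those with the most tubule RNA, at 4941 and 3783 summed CPM against 126 to 1148 in Sham KRM, and their summed macrophage identity genes were at 5670 and 7005 CPM against 11210 to 13220 CPM in Sham KRM and 10010 in RAS replicate 1. Endothelial genes summed to 192.5 and 162.8 CPM in these 2 libraries, 14.75 CPM in RAS replicate 1 and 9.63 to 21.8 CPM in Sham KRM. Dissociation stress genes summed to 20100 to 24640 CPM in RAS and 29690 to 45070 CPM in Sham KRM. The sum of 8 T and NK cell genes was 325.5 CPM in RAS replicate 1, 53.9 and 55.95 in RAS replicates 2 and 3, and 78.5 to 109.1 in Sham KRM. Among them edgeR called Cd4 lower in RAS KRM (log2 -1.46, adjusted p = 0.0414). It called Nkg7 and Cd3e higher (log2 6.13 and 4.98, adjusted p = 0.0231 and 0.0239). The part of these cells and of stress in the differences between RAS and Sham KRM was not tested.

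**Figure D4:**
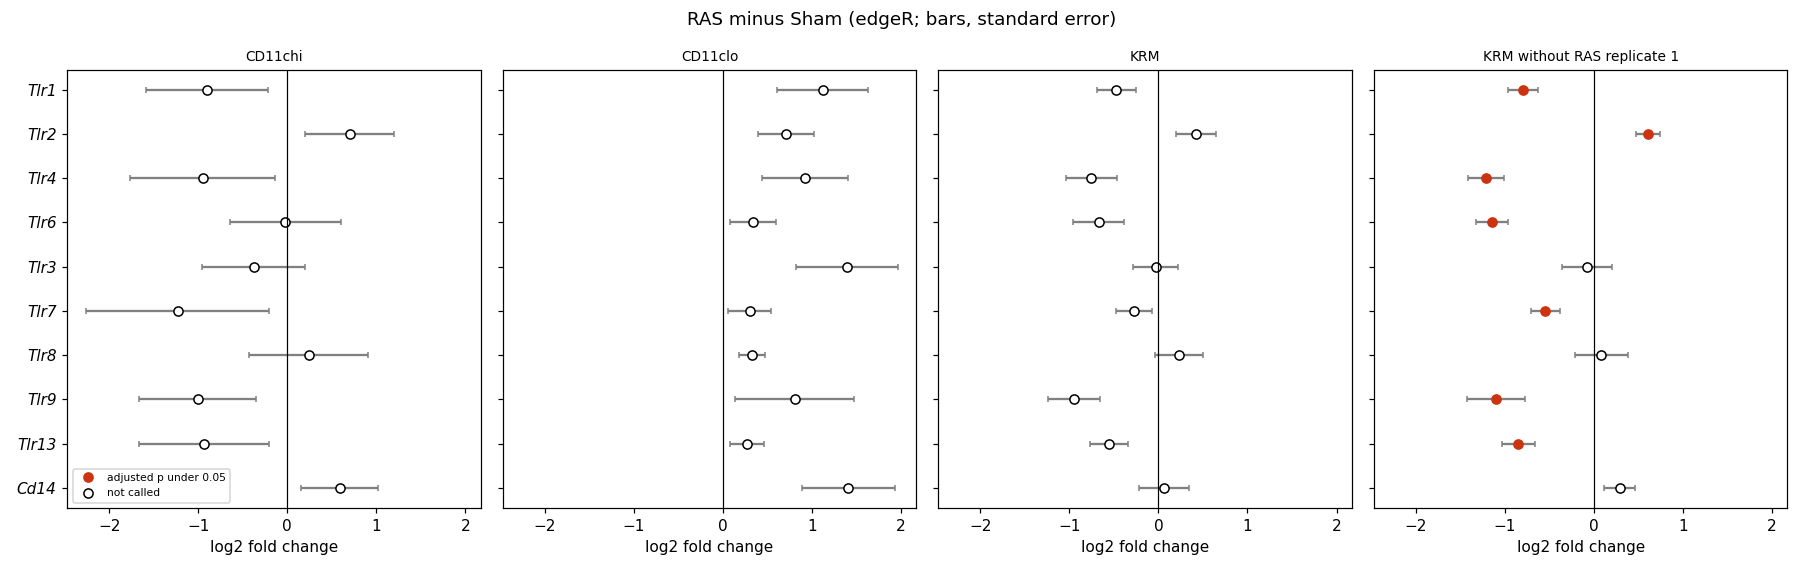
Log2 fold change of RAS against Sham for each gene in CD11chiMϕ, CD11cloMϕ and KRM, and in KRM without RAS replicate 1 (horizontal axes, bars are standard errors, edgeR; filled points have an adjusted p under 0.05). No point is filled in the first 3 panels; in the last, 6 genes lie left of 0 and Tlr2 right of 0 with filled points.

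Whether the response differed between populations was tested as an interaction, and 0 of the 10 genes were called in any pair. For KRM minus CD11chiMϕ and for CD11chiMϕ minus CD11cloMϕ 0% of all genes were called in either direction, and 0 of the 10 genes had an unadjusted p under 0.05, against 21.2% and 6.65% of all genes. For KRM minus CD11cloMϕ 0.223% of 13877 genes were higher and 0.0216% lower, and 7 of the 10 genes had an unadjusted p under 0.05, all lower in KRM. Of all genes 3289 had one (23.7%), and 9.56% of the genes tested had one and were lower in KRM. Tlr1 had a difference of -1.64 on the log2 scale (standard error 0.60, adjusted p = 0.136) and Tlr4 of -1.70 (standard error 0.64, adjusted p = 0.141), since their means were lower in RAS KRM and higher in RAS CD11cloMϕ. DESeq2 called 0 of the 10 in each pair, where it called 8.92% of all genes for KRM minus CD11chiMϕ, 10.4% for KRM minus CD11cloMϕ and 0.116% for CD11chiMϕ minus CD11cloMϕ. For KRM minus CD11cloMϕ limma called 2 (Tlr4 and Tlr6), where it called 6.26% of 14020 genes lower and 1459 in either direction, and it called 0 of the 10 for the other pairs, where it called 0.949% and 0% of all genes. The limma fits with KRM hold the column of RAS KRM replicate 1 that did not correspond to its counts. Without RAS KRM replicate 1, 3 were called lower, where 7.87% of all genes were lower: Tlr4 (-2.14, 0.0443), Tlr6 (-1.51, 0.0209) and Tlr13 (-1.14, 0.0276). The pairs that involve KRM share the KRM libraries.

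The other 3 Toll-like receptors of the mouse were counted alongside. Tlr12, which with Tlr11 binds the profilin of protozoan parasites, was at 66.2 ± 5.17 CPM (SD, n = 4) in Sham KRM, 23.1 ± 6.27 CPM (n = 3) in Sham CD11chiMϕ and 4.26 ± 3.81 CPM (n = 3) in Sham CD11cloMϕ. It was higher in Sham KRM than in CD11chiMϕ (log2 1.46, adjusted p = 0.0131) and CD11cloMϕ (log2 3.95, adjusted p = 0.000651). With the replicate block these p became 0.105 and 0.00104, and without Sham KRM replicate 1, 2 or 4 the first rose to at most 0.0552. Tlr11 was higher in RAS CD11chiMϕ than in RAS CD11cloMϕ, at 23.4 ± 15.8 and 5.28 ± 1.11 CPM (log2 2.13, adjusted p = 0.0306, at most 0.0915 with 1 library left out and under 0.05 in 3 of 8 such fits). Tlr5, the flagellin receptor, was lower in RAS KRM than in RAS CD11cloMϕ, at 1.05 ± 0.214 and 7.81 ± 3.61 CPM (log2 -2.84, adjusted p = 0.0355). That call was kept in 3 of 7 fits with 1 library left out, where p reached 0.149, and limma on the deposited log2 values gave an adjusted p of 0.344. The limma fit holds the column of RAS KRM replicate 1 that did not correspond to its counts. Tlr5 was at 3.31 in that column, on 10 counts, against 0.316 and 0.496 in RAS KRM replicates 2 and 3.

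Genes that work with the receptors were counted between Sham KRM and Sham CD11cloMϕ, where 19.5% of all genes were higher in KRM and 22.4% lower. Of 10 accessory proteins and chaperones, 6 were higher and 1 lower in KRM, with a median log2 fold change of 0.82. Unc93b1, which carries the endosomal receptors to their compartment, was at 2127 ± 302 CPM (n = 4) and 916 ± 55.01 CPM (n = 3, log2 1.19, adjusted p = 0.000394), Cd36, a co-receptor of Tlr2, was higher by 1.53 on the log2 scale (adjusted p = 0.0108) and the endolysosomal transporter Slc15a3 by 1.34 (adjusted p = 0.00263). Of 15 adaptors and proximal kinases 3 were higher and 6 lower (median -0.28), with Pik3ap1 at 1.23 (adjusted p = 0.000139), Myd88 at -1.19 (adjusted p = 0.00321) and Traf3 at -1.21 (adjusted p = 0.00313). Of 8 transcription factors 1 was higher and 3 lower (median -0.37), namely Irf8 at 0.99 (adjusted p = 0.00102) and, among those lower, Nfkb1 at -1.20 (adjusted p = 0.000398) and Irf7 at -1.18 (adjusted p = 0.00136).

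Of 10 inhibitors of the pathway 0 were higher and 5 lower in Sham KRM (median -0.55), against the same 19.5% and 22.4% of all genes, with Tnfaip3 (A20), which removes ubiquitin from signalling proteins, at -2.62 (adjusted p = 3.41e-05), Nfkbia at -2.24 (adjusted p = 0.000444) and Irak3 at -1.18 (adjusted p = 0.000357). Of 18 induced targets 4 were higher and 9 lower (median -1.89), and Il6 was at 0.476 ± 0.423 CPM (n = 4) in Sham KRM and 22.05 ± 3.41 CPM (n = 3) in CD11cloMϕ. Saa3, an acute phase protein, and Lcn2, which neutrophils also express, were at 0.267 ± 0.214 and 0.695 ± 0.441 CPM in KRM and at 82.1 ± 89.6 and 53.6 ± 57.3 CPM in CD11cloMϕ. Against CD11chiMϕ in Sham kidneys 6 of the 18 induced targets were lower and 0 higher in KRM, where 4.13% of all genes were lower, and with the replicate block 2 were (Saa3 and Ptgs2). Leaving out 1 library left 1 to 7 called lower, in fits that called 1.27 to 13.6% of all genes in either direction. Of 8 conventional dendritic cell genes 5 were lower in KRM, with sums of 363.5 to 1776 CPM in Sham CD11chiMϕ and 109.6 to 137.7 CPM in Sham KRM. Of 8 classical monocyte genes 5 were lower too, with sums of 618.6 to 3175 and 576.7 to 876 CPM, and the part of these cells was not tested. The lists of adaptors, transcription factors, inhibitors and accessory proteins held 0 calls there.

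In KRM the RAS comparison called 7 of the 16 induced targets that were tested as higher and 1 as lower (median 1.76, against 0.02 over all genes), where 7.77% of all genes were higher and 1.94% lower. Leaving out 1 library left 1 to 13 called higher, in fits that called 0.204 to 50.2% of all genes in either direction, and Il1a was the one called in 7 of 7 such fits. Il1a was at 59.7 ± 20.1 CPM (n = 3) in RAS and 2.95 ± 0.385 CPM (n = 4) in Sham KRM (log2 4.45, adjusted p = 0.0021), and Ptgs2, the inducible cyclooxygenase, was at 167.8 ± 139.5 and 7.47 ± 4.26 CPM (adjusted p = 0.0325). Lcn2, which injured tubule cells also make, was at 80.3 ± 70.9 CPM, with 1.67 CPM in the lowest of the RAS libraries, and 0.695 ± 0.441 CPM (adjusted p = 0.0272). Tnfaip3 (644 ± 421 against 175 ± 38.0 CPM, log2 2.00, adjusted p = 0.0496) and Socs1 (log2 1.13, adjusted p = 0.0445) were the 2 inhibitors that rose. Of the accessory proteins, Lbp, which carries lipopolysaccharide to Cd14, was at 8.51 ± 6.36 CPM (n = 3) in RAS and 0.355 ± 0.254 CPM (n = 4) in Sham KRM (adjusted p = 0.0331), the 1 accessory gene that was higher, named after its values were seen. Cd36 fell by 0.83 on the log2 scale (adjusted p = 0.0480). Apart from Il1a, each of the genes named here was called in 1 or 2 of 7 fits with 1 library left out. The part of the tubule and endothelial RNA of RAS KRM replicates 2 and 3 in these changes was not tested. The adaptors and transcription factors held 0 calls. In CD11chiMϕ and CD11cloMϕ 0 genes of these lists were called between RAS and Sham.

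Between populations of RAS kidneys, where 5.89% of all genes were lower in KRM than in CD11cloMϕ, Myd88 (log2 -1.46, adjusted p = 0.0271) and Traf3 (log2 -1.09, adjusted p = 0.0265) were lower in KRM than in CD11cloMϕ, the 2 calls among 15 adaptors, and Nfkb1, Irf7 and Nfkb2 were the 3 calls among 8 transcription factors, at -1.58, -1.32 and -1.13. Without RAS KRM replicate 2 or 3 the 1208 calls over all genes for this pair became 0, and without RAS CD11cloMϕ replicate 2 or 4 they became 45 or 89, and each of these 5 genes was called in 2 or 3 of 7 fits with 1 library left out. In CD11chiMϕ against CD11cloMϕ, where 5.15% of all genes were higher and 3.12% lower, Irf7 was lower (log2 -1.85, adjusted p = 0.0184), Sigirr and Il1rl1, receptors that restrain the pathway, were higher (log2 2.35 and 1.78, adjusted p = 0.00626 and 0.0400), and Irak3 was lower (log2 -1.35, adjusted p = 0.00991), 1 of 8 transcription factors and 3 of 10 inhibitors. Sigirr and Irak3 were called in 8 of 8 fits with 1 library left out, Irf7 in 3 and Il1rl1 in 2. Nfkb1 was lower in KRM than in CD11chiMϕ, at 44.7 and 206 CPM on average (log2 -2.15, adjusted p = 0.0117, called in 3 of 7 fits with 1 library left out), the 1 call among 8 transcription factors where 5.07% of all genes were lower.

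The genes whose levels followed each member most closely over the 21 libraries were ranked by Pearson's r of log2 CPM among 8893 genes with an average log2 CPM of at least 3. This is a description, since the libraries share populations, depth and other cells. Tlr1 was followed by Tgfbr2, Abcc3 and P2rx7 (r = 0.966 to 0.964), Tlr4 by Lpar6, Slc9a9 and Khnyn (0.963 to 0.947), Tlr13 by Cybb, Slc28a2 and Mtmr6 (0.960 to 0.949) and Tlr6 by Tfe3, Scarb2 and Sirpa (0.951 to 0.943). Tlr2 was followed by Spty2d1, Sdcbp and Nlrp3 (0.946 to 0.910), Tlr7 by Cln8, Oas2 and Serpinb8 (0.942 to 0.931), Tlr8 by Tbc1d2b, Plxnb2 and Eif2ak3 (0.934 to 0.909) and Tlr3 by Cadm1, Cd72 and Dnase1l3 (0.928 to 0.906). Tlr9, the scarcest, was followed by Trim65, Gdf3 and Prpsap2 (0.906 to 0.825), and Cd14 by Jdp2, Pmp22 and Tlr2 (0.868 to 0.815). Among the members themselves Tlr1 and Tlr4 (r = 0.910) and Tlr8 and Tlr13 (r = 0.891) were closest, and Tlr3 and Tlr8 were farthest apart (r = -0.251).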

How the data were processed

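Sorted macrophages of 21 libraries were used, each matched by its column name to its population, surgery and replicate number. Estimated counts, partly fractional, were deposited by the authors for each gene (build mm10), and a table of normalized values on the log2 scale. Per the study's methods the paired-end reads had been aligned by the OSA aligner of OmicSoft and annotated with Ensembl genes, and values scaled as TPM and quantile normalized; the strand setting of the counting is not given in the sources used here. The submitters' processing notes name DESeq2. Counts were rounded and the 3730 of 37620 lines that share a symbol were summed. Positions and exon lengths are from GENCODE vM21 (GRCm38).

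edgeR 4.0.16 in R 4.3.3 was used with TMM factors, filterByExpr (minimum count 10, minimum total 15) and the two-sided quasi-likelihood F test on the groups compared, adjusted by Benjamini-Hochberg over all genes tested. Calls have an adjusted p under 0.05, and CPM are scaled by TMM over 21 libraries. As alternatives, median-of-ratios size factors, library totals, no filter, 10 counts in every library, 1 fit over 6 groups, DESeq2 1.42.0, a replicate block, limma 3.58.1 with the deposited log2 values and leaving out each library were run. limma without the column of RAS KRM replicate 1 was chosen after seeing the data. The method was tested on simulated data. No replicate pair agreed within counting error. The chi-square per gene between 2 libraries was 5.13 for RAS CD11chiMϕ replicates 3 and 4 and 94.3 to 127.9 for other pairs of that group. It was 10.1 for RAS KRM replicates 2 and 3, and 135.6 and 106.7 for each of them with replicate 1. Fits without RAS KRM replicate 1 therefore take the spread of RAS KRM from its closest pair. The members and gene lists were chosen with earlier results of these data known, and named list genes are the 3 called with the largest change among genes averaging a log2 CPM of 3 or more.

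Same-numbered Sham libraries of different populations deviated together from their group means, with correlations of 0.201 to 0.647, which meets the rule for pairing. Between populations in RAS the correlations were 0.0535 to 0.505, and between Sham and RAS -0.196 to 0.325. Whether equal numbers mark the same animals was not given in the sources used here. The main fits, also those of Sham kidneys, are unpaired.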

Additional observations from a re-analysis of the deposited data

Results flagged for a closer look

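In RAS CD11chiMϕ, replicate 1 was far above the other three libraries for Tlr1 (80.97 CPM, against 17.3, 24.8 and 23.3 CPM) and for Tlr7 (86.88 CPM, against 17.5, 6.98 and 3.64 CPM), by Dixon's test at 95%. Of 30 groups of 4 libraries tested over the 10 genes these 2 were marked, and chance marks about 1 in 20. The same library had 1022 summed CPM of conventional dendritic cell genes, against 2067 to 5151 in the other three, and 321 summed CPM of neutrophil genes, against 15.9 to 166; their part was not tested.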

How the results depend on the processing

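The 10 member differences called in the main analysis kept their direction in all 153 repeats under the alternatives, and 115 of these stayed under an adjusted p of 0.05. The groups did not overlap for these 10 differences, so leaving out a library could hardly change their direction. For KRM against CD11cloMϕ in Sham kidneys, 6 genes were called and 3 in 1 fit over 6 groups (Tlr1, Tlr3 and Tlr9), with 5 to 7 when 1 library was left out. In what follows, the percentage in brackets after a count is the share of all genes called in either direction at that setting, here 23.8% in 1 fit and 32.8 to 47.1% with 1 library left out. The replicate block changed no call there (6 genes, 34.5%), and none in the other Sham comparisons (0 genes, 0.719% for KRM against CD11chiMϕ and 4.92% for CD11chiMϕ against CD11cloMϕ). In RAS it gave 2 (8.48%) for KRM against CD11cloMϕ and 3 (10.2%) for CD11chiMϕ against CD11cloMϕ, Tlr7 being added (adjusted p = 0.0358). Of the other comparisons, KRM against CD11chiMϕ in Sham kidneys gave 0 in the main analysis, 1 with DESeq2 (15.5%) and 0 to 1 with 1 library left out (1.27 to 13.6%). CD11chiMϕ against CD11cloMϕ in Sham gave 0, 1 with DESeq2 (10.5%), 1 in 1 fit over 6 groups (5.64%) and 0 to 2 (0 to 5.7%). KRM against CD11chiMϕ in RAS gave 0, 1 with limma without RAS KRM replicate 1 (16.3%), and 0 to 4 (0.103 to 19.6%).

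KRM against CD11cloMϕ in RAS gave 2, but 1 with library totals (11.4%), 1 with no filter (5.22%), 1 with limma (5.24%), 0 in 1 fit over 6 groups (12.7%), 4 with DESeq2 (24.5%) and 0 to 4 with 1 library left out (0 to 23%). CD11chiMϕ against CD11cloMϕ in RAS gave 2, but 0 with library totals (6.8%), 4 with DESeq2 (16.7%) and 0 to 5 (2.02 to 17.3%). RAS against Sham in KRM gave 0, 3 with DESeq2 (24.8%), 1 with limma (18.5%), 7 with limma without RAS KRM replicate 1 (52.5%) and 0 to 7 (0.204 to 50.2%). The difference in response of KRM minus CD11cloMϕ gave 0, 2 with limma (10.4%), 5 with limma without that column (28%) and 0 to 3 (0 to 16.1%). Leaving out a library gave 0 for RAS against Sham in CD11chiMϕ (0 to 0.314%) and CD11cloMϕ (0%) and for the differences in response of KRM minus CD11chiMϕ (0 to 7.4%, the highest without RAS KRM replicate 1) and CD11chiMϕ minus CD11cloMϕ (0%). Library totals moved the median of all genes for KRM against CD11cloMϕ in RAS from 0.06 to 0.27. The cause of these changes was not tested. Depth limits Tlr9, at 7 to 72 counts a library.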
